A study of Mus musculus with 6 samples.

Results

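The genes described here encode enzymes that oxidise or reduce alcohols, aldehydes and ketones, that split esters and epoxides, or that add oxygen to nitrogen, sulfur or carbonyl groups. They are alcohol dehydrogenases (Adh), aldehyde dehydrogenases (Aldh), aldo-keto reductases (Akr), carboxylesterases (Ces), epoxide hydrolases (Ephx) and flavin-containing monooxygenases (Fmo). They were chosen by name alone, as every probe of the array whose annotated gene symbol starts with one of these 6 family names followed by a digit. This gave 68 of the 19027 genes that the array's probes name, covered by 112 of its 45135 probes. Of these, 43 genes were measured, meaning that at least 1 probe lay above background on at least 3 of the 6 arrays, out of 11368 genes measured in all.

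Total RNA came from the colon mucosa of 6 C57/B6 mice aged 5 months, 1 Illumina bead array per mouse. All 6 carried APC(Min/+), the Min mutation that predisposes to intestinal tumours, and Dnmt3a(2lox/2lox), 2 floxed alleles of the gene for an enzyme that adds new methyl groups to DNA. Fabp-Cre, a recombinase transgene that the sample titles name for Fabpl, was present in the 3 Dnmt3a-deleted mice and absent from the 3 control mice. Per the design, Cre removed Dnmt3a from 30 to 50% of mucosa cells, so each Dnmt3a-deleted sample still held many cells with the gene, and in such whole-tissue RNA fewer cells of a type cannot be told apart from less RNA per cell.

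As background, alcohol dehydrogenases turn alcohols into aldehydes and aldehyde dehydrogenases turn aldehydes into acids, the route that clears ethanol and acetaldehyde and that makes retinoic acid from vitamin A. Aldo-keto reductases run the other way, reducing aldehydes and ketones, steroids among them. Carboxylesterases cleave esters of drugs, diet and stored lipid, epoxide hydrolases open epoxides, and flavin-containing monooxygenases add oxygen to nitrogen, sulfur or carbonyl groups. In the colon these enzymes meet substances made by microbes and taken in with food.

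Per array, signal averaged 353, 368 and 285 for Dnmt3a-deleted replicates 1 to 3, against 360 to 379 for the control mice, and 56 to 65 of the 112 probes lay above background on an array. Dnmt3a-deleted replicate 3 stood apart: its correlations with the other arrays were 0.925 to 0.95, while the other 5 correlated with each other at 0.978 or above. By Xist and the Y-linked Eif2s3y it was female and the other Dnmt3a-deleted mice male, while the control mice were 1 male, replicate 1, and 2 females. Both female control mice correlated with the male arrays at 0.978 or above. No Dnmt3a probe lay above background on any array, so the deletion could not be checked. All 14 colonocyte markers looked for were measured, and their summed linear intensity was 110046, 97081 and 58216 in Dnmt3a-deleted replicates 1 to 3, against 105879, 98606 and 88550 in control replicates 1 to 3.

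The first comparison asked whether any of these enzymes differed between Dnmt3a-deleted and control mucosa. By limma, with Benjamini-Hochberg adjustment over all 11368 genes, 0 of the 43 members passed an adjusted p of 0.05, the smallest being 0.701, where 0.00880% of all measured genes passed (1 gene, not a member). At an unadjusted p under 0.05 there was 1 lower member, Adh5, and 0 higher ones, against 2.15% of all genes lower and 3.07% higher. The 3 Dnmt3a-deleted values lay all below the 3 control values for 1 member, Adh5, and all above them for 2, Aldh2 and Aldh4a1, where 5.30% and 9.22% of all genes did so. These shares of the members lay near or below those of all genes. The mean difference exceeded 1 on the log2 scale for 3 of the 43 members, Adh5, Aldh1a1 and Akr1c12. That was a larger share than over all measured genes, where 148 of 11368 (1.30%) did so.

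Signs were split, with 22 members lower and 21 higher in Dnmt3a-deleted mucosa. The median log2 difference (Dnmt3a-deleted minus control) was -0.03 over the members and 0.05 over all genes, of which 41.7% were lower. That split moved with the scaling of the arrays, and so did the share over all genes. With cyclic loess 27 members were lower and 16 higher (62.8% lower, against 46.2% of all genes). With median scaling 28 were lower and 15 higher (65.1% lower, against 58.1% of all genes). Without Dnmt3a-deleted replicate 3, 29 members were lower, where 44.8% of all genes were, with a median of -0.12. Then 2 members were lower (Adh5 and Aldh6a1) and 1 higher (Akr1c18) at an unadjusted p under 0.05, against 2.12% and 2.74% of all genes, and the smallest adjusted p was 0.926. The groups then did not overlap for 4 lower members (Adh5, Aldh6a1, Akr1c14 and Ephx2) and 3 higher ones (Aldh2, Aldh4a1 and Akr1c18), against 8.61% and 13.4% of all genes.

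**Figure D1:**
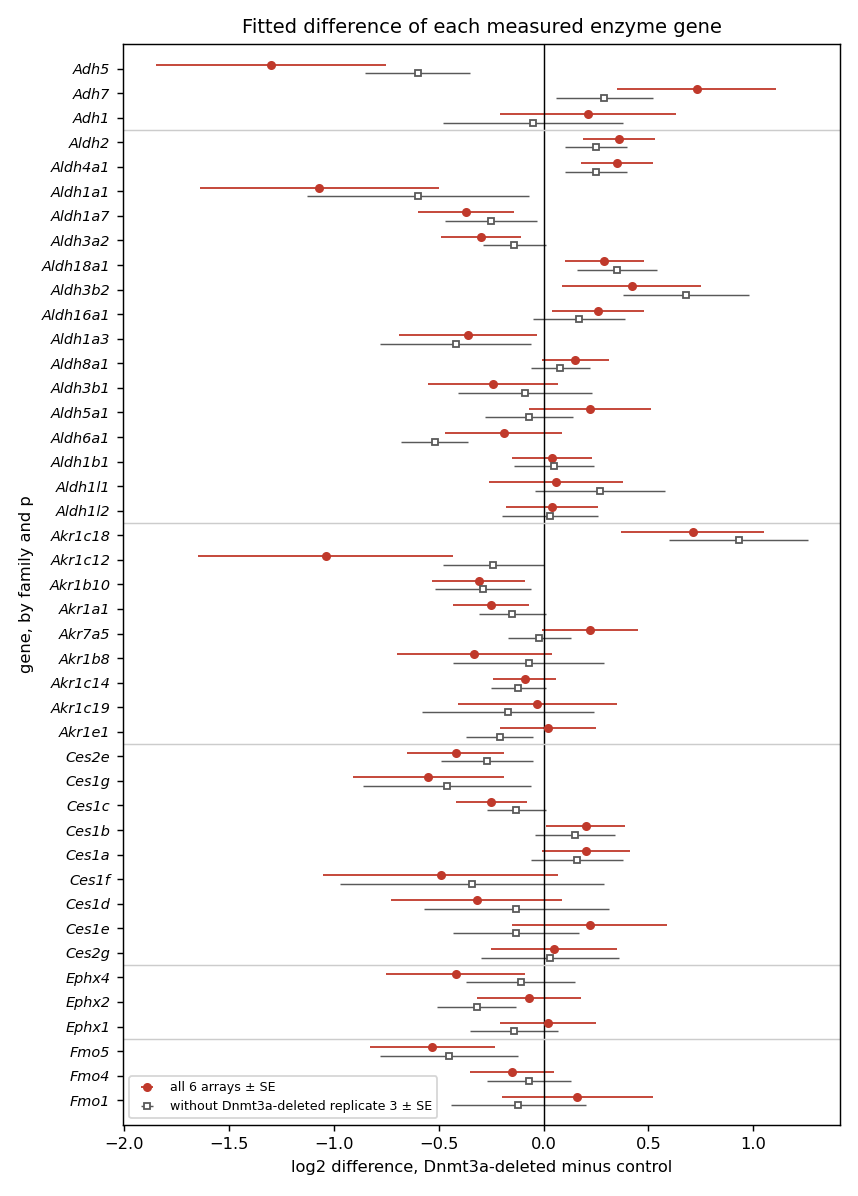
Log2 difference of each of the 43 measured genes, Dnmt3a-deleted minus control, with its SE, from all 6 arrays (filled) and without Dnmt3a-deleted replicate 3 (open), genes ordered by family and then by p. Most genes lie near 0, Adh5, Aldh1a1 and Akr1c12 lie below -1 with wide errors, and these 3 move towards 0 when the replicate is left out.

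The promoters below belong to the members with a mean difference over 1 on the log2 scale (Adh5, Aldh1a1, Akr1c12) or with groups that did not overlap (Adh5, Aldh4a1). Aldh2, whose groups did not overlap either, has no promoter entry in the reference used. Each sequence runs from 250 bases before to 50 bases after an annotated start, from RefSeq on GRCm38.p6, and its CpG dinucleotides, the sites that DNA methyltransferases act on, are in capitals. Adh5 and Aldh1a1 each have 2 annotated starts.
Adh5 first start, chr3:138436950-138437249, plus strand: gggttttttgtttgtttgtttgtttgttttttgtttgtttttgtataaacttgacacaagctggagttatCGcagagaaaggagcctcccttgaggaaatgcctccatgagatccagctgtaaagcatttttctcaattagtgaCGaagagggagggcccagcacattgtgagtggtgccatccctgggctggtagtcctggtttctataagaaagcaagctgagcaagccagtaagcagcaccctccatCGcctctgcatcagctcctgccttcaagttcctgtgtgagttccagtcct
Adh5 second start, chr3:138442843-138443142, plus strand: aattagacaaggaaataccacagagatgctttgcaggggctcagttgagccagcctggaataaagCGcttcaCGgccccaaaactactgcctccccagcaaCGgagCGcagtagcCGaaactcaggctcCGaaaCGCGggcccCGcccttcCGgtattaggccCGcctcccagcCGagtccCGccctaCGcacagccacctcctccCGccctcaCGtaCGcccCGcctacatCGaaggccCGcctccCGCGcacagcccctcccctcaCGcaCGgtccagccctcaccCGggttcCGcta
Aldh1a1 first start, chr19:20492333-20492632, plus strand: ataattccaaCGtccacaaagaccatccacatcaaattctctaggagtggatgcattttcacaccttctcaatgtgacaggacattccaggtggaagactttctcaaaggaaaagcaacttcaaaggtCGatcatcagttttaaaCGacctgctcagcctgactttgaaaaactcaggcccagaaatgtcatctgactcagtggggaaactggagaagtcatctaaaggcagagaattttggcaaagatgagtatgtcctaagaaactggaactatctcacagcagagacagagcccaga
Aldh1a1 second start, chr19:20601718-20602017, plus strand: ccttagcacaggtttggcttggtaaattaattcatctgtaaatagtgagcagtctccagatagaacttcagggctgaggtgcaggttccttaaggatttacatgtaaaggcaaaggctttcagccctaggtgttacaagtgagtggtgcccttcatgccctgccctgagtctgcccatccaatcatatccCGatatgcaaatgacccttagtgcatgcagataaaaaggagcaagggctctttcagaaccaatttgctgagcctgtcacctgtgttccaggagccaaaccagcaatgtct
Akr1c12, chr13:4279350-4279649, minus strand: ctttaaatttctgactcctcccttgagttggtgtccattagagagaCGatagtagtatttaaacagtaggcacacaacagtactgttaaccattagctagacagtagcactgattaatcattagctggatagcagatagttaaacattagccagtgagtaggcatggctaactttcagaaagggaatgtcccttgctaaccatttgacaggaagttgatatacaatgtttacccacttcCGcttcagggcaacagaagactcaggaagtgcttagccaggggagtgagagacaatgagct
Aldh4a1, chr4:139622644-139622943, plus strand: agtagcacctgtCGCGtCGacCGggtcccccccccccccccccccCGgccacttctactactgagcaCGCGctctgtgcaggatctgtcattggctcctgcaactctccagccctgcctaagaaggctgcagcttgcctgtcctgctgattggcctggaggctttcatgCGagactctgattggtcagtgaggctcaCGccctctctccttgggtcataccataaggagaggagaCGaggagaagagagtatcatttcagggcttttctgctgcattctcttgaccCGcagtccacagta

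The second Adh5 start held 26 CpGs and the Aldh4a1 start 11, while the first Adh5 start held 3, the Aldh1a1 starts 3 and 1, and the Akr1c12 start 2. Over the 40 promoters found for 35 of the 43 measured members the CpG count ran from 0 to 41 with a median of 4.5, beside a median of 7 over all 32851 promoters of this length. Ces promoters had a median of 2 (8 promoters) and Aldh promoters one of 8 (14 promoters). The core of the antioxidant response element, TGACNNNGC, sought on both strands with overlapping matches counted, occurred in 1 of the 40 (2.5%), that of Akr1c19, and in 12.4% of all promoters. Methylation was not analysed here, and these counts describe the sequences only.

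Of the 6 Adh genes, 3 were measured. Adh5, the class III enzyme that clears formaldehyde bound to glutathione, had log2 intensities of 8.68, 9.46 and 6.98 in Dnmt3a-deleted replicates 1 to 3, against 9.88, 9.68 and 9.47 in control replicates 1 to 3. Each Dnmt3a-deleted value lay below each control value, but replicate 2 lay just below the lowest control value, and replicate 3 lay far below the rest. The difference was -1.30 ± 0.55 (SE; unadjusted p 0.0465, adjusted p 0.701 by limma). Leaving out Dnmt3a-deleted replicate 3 gave -0.60 ± 0.25 (limma, adjusted p 0.926). A term for sex gave -1.70 ± 0.40 (limma, adjusted p 0.338). Only 1 of the 4 Adh5 probes lay above background, so no second probe bears on this value.

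Adh7, the class IV enzyme that oxidises retinol and ethanol, went the other way, at 5.92, 5.20 and 6.86 in Dnmt3a-deleted mucosa against 5.08, 5.32 and 5.39 in control mucosa. The groups overlapped, replicate 3 was again the extreme array, and the difference of 0.73 ± 0.38 was 0.29 ± 0.23 without it. This dim probe lay above background on 3 Dnmt3a-deleted and 2 control arrays. The other Adh7 probe, above background on 2 control arrays only, was not kept. It was at 4.97, 4.82 and 4.63 in Dnmt3a-deleted mice, against 5.18, 5.13 and 5.33 in control mice, the opposite direction. Adh1, the class I enzyme for ethanol and retinol, was at 13.22, 12.41 and 13.59 in Dnmt3a-deleted mice, against 12.11, 13.61 and 12.87 in control mice, so that mice of both groups spanned nearly the same range (difference 0.21 ± 0.42). Its other kept probe gave -0.19 ± 0.44.

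Among the aldehyde dehydrogenases of retinoid and ethanol metabolism, Aldh1a1, which makes retinoic acid from retinal in the cytosol, was at 7.75, 9.61 and 7.27 in Dnmt3a-deleted replicates 1 to 3, against 9.79, 9.30 and 8.74 in control replicates 1 to 3. Replicates 1 and 3 lay below every control mouse and replicate 2 lay among them, and the difference was -1.07 ± 0.57 (adjusted p 0.701). It was -0.60 ± 0.53 without Dnmt3a-deleted replicate 3. Aldh1a7, a close rodent relative of Aldh1a1, was at 6.87, 6.87 and 6.51 in Dnmt3a-deleted mice, against 7.20, 7.44 and 6.70 in control mice (-0.37 ± 0.23), the lowest control value lying below the values of replicates 1 and 2. Aldh1a3, another retinal dehydrogenase, had a difference of -0.36 that came from control replicate 2, at 6.57, while the other 5 arrays lay between 5.20 and 5.53, and it was 0.03 without that mouse.

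Aldh2, the mitochondrial enzyme that clears acetaldehyde, was at 13.36, 13.22 and 13.62 in Dnmt3a-deleted mucosa, against 13.13, 13.09 and 12.90 in control mucosa. The groups did not overlap, by a small margin, and the difference was 0.36 ± 0.17 (adjusted p 0.701) or 1.28-fold. It was 0.25 ± 0.15 without Dnmt3a-deleted replicate 3, and its sign held in all 23 alternatives, between 0.16 and 0.45. Aldh1b1, its mitochondrial relative, was at 10.43, 10.58 and 10.48 in Dnmt3a-deleted mice, against 10.78, 10.39 and 10.21 in control mice (0.04 ± 0.19), its sign changing with the processing.

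Others act in amino acid metabolism. Aldh4a1, which completes the breakdown of proline in mitochondria, was at 10.01, 9.82 and 10.20 in Dnmt3a-deleted mice, against 9.58, 9.63 and 9.78 in control mice. These groups did not overlap either, again by a small margin, with a difference of 0.35 ± 0.17 (adjusted p 0.701) that kept its sign in all 23 alternatives (0.20 to 0.44). Its second kept probe gave 0.06 ± 0.15, with overlapping groups. Aldh18a1, which acts in the opposite direction as the first step of proline synthesis, had a difference of 0.29 ± 0.19.

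Aldh6a1, of valine breakdown, was at 7.40, 7.18 and 8.26 in Dnmt3a-deleted mice, against 7.88, 7.90 and 7.65 in control mice. Replicates 1 and 2 were the lowest mice and replicate 3 the highest, so that the difference of -0.19 ± 0.28 became -0.52 ± 0.16 without replicate 3 (unadjusted p 0.0119, adjusted p 0.926). Aldh5a1, which clears succinic semialdehyde, had 4 kept probes with differences of 0.22, 0.13, 0.10 and 0.05. Of the remaining Aldh genes, the fatty aldehyde enzyme Aldh3a2 was at 10.57, 10.88 and 10.24 in Dnmt3a-deleted mice, against 10.91, 10.83 and 10.87 in control mice (-0.30 ± 0.19), with replicates 1 and 3 below and replicate 2 level with the control mice. Aldh3b1 and Aldh3b2 stood at -0.24 and 0.42, the folate enzymes Aldh1l1 and Aldh1l2 at 0.06 and 0.04, and Aldh16a1 and Aldh8a1 at 0.26 and 0.15.

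Among the aldo-keto reductases, Akr1c12, of the steroid-reducing Akr1c cluster, was at 11.63, 12.21 and 9.53 in Dnmt3a-deleted replicates 1 to 3, against 12.38, 12.28 and 11.82 in control replicates 1 to 3. Replicate 3 alone lay more than 2 log2 units below the rest, and the difference of -1.04 ± 0.61 was -0.24 ± 0.24 without it. Akr1c18, which inactivates progesterone, went the other way, at 5.91, 6.84 and 5.72 in Dnmt3a-deleted mice, against 5.84, 4.99 and 5.51 in control mice (0.71 ± 0.34). Here replicate 2 was the highest array, and without replicate 3 the groups did not overlap (0.93 ± 0.33, unadjusted p 0.0249, adjusted p 0.926).

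Akr1c19 was at 11.88, 12.88 and 12.79 in Dnmt3a-deleted mice, against 12.94, 12.90 and 11.79 in control mice, with 1 low mouse in each group and a difference of -0.03 ± 0.38. Akr1c14, a 3-alpha-hydroxysteroid dehydrogenase, varied least of all members, between 6.34 and 6.54 (difference -0.09 ± 0.15). Akr1a1, the aldehyde reductase that in mice serves vitamin C synthesis, was at 13.06, 13.39 and 12.91 in Dnmt3a-deleted mice, against 13.35, 13.47 and 13.28 in control mice (-0.25 ± 0.18), and its second probe gave -0.20 ± 0.20.

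The aldose reductase relative Akr1b10 was at 8.19, 7.64 and 7.86 in Dnmt3a-deleted mice, against 8.21, 7.91 and 8.51 in control mice (-0.31 ± 0.22). Its dimmer kept probe separated the groups, at 5.37, 5.67 and 4.87 in Dnmt3a-deleted mice, against 6.00, 5.89 and 6.37 in control mice, with a difference of -0.78 ± 0.24 and an adjusted p of 0.699 over all kept probes. It was 1 of 2 member probes that were lower at an unadjusted p under 0.05 (0.0129), where 2.35% of all kept probes were, the other being that of Adh5. None was higher at that threshold by limma, against 2.54% of all kept probes. Its relative Akr1b8 stood at -0.33 ± 0.37. Akr7a5, which reduces aldehydes of toxins and of GABA breakdown, was at 11.15, 11.27 and 11.93 in Dnmt3a-deleted mice, against 11.29, 11.31 and 11.08 in control mice (0.22 ± 0.23), but its 3 kept probes gave 0.22, 0.21 and -0.52. Akr1e1 stood at 0.02 ± 0.23.

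**Figure D2:**
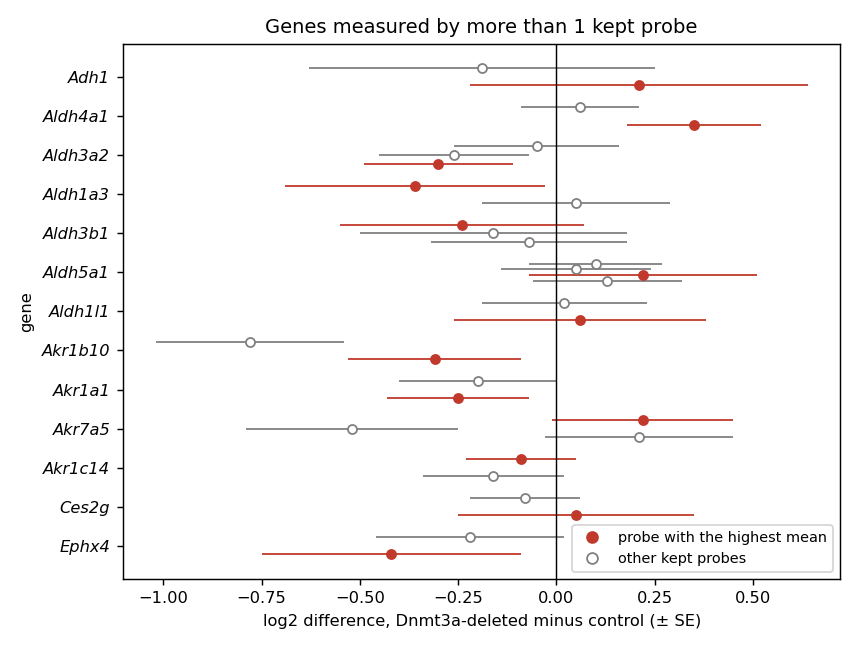
Log2 differences (Dnmt3a-deleted minus control, ± SE) of every kept probe of the 13 members measured by more than 1 probe. For 9 of the 13 all probes share a sign, and for Adh1, Aldh1a3, Akr7a5 and Ces2g they do not.

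The 9 measured Ces genes had a median difference of -0.25. That median is the value of Ces1c, which passed the filter through the control mice, as Ces1g did. Each was above background on 3 control arrays and 1 Dnmt3a-deleted array. With no filter the median of the family was 0.05, so its sign is not independent of the filter. Genes of the Ces1 group lie side by side on chromosome 8 and are alike in sequence, so a probe of one may also take up RNA of another, as probes of the Akr1c genes may. Ces2e, an intestinal carboxylesterase, was at 8.22, 7.93 and 7.61 in Dnmt3a-deleted replicates 1 to 3, against 8.63, 7.97 and 8.42 in control replicates 1 to 3 (-0.42 ± 0.23, adjusted p 0.701). Replicate 3 was its lowest array and control replicate 1 its highest. Ces1g, known in mice for its part in liver lipid handling, was at 5.12, 5.73 and 5.16 in Dnmt3a-deleted mice, against 6.72, 5.43 and 5.51 in control mice (-0.55 ± 0.36), and it was -0.13 without control replicate 1.

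Ces1f was at 8.53, 10.25 and 8.95 in Dnmt3a-deleted mice, against 10.75, 8.86 and 9.58 in control mice, a spread of 2.22 over the 6 mice with no order by genotype (-0.49 ± 0.56). Ces1d, a lipid hydrolase of liver and fat, was at 9.35, 9.68 and 8.96 in Dnmt3a-deleted mice, against 10.42, 9.81 and 8.71 in control mice (-0.32 ± 0.41). Both turned sign without control replicate 1, to 0.02 and 0.07, and the median of the family then also stood at 0.02. Of 9 adipocyte markers 2 were measured, Pparg (-0.75 ± 0.49) and Lpl (-0.70 ± 0.65), neither of which is particular to fat. Both were likewise highest in control replicate 1 (11.44 and 8.75), and the summed intensity of the pair was 640 to 2658 in Dnmt3a-deleted and 1694 to 3209 in control mice. The defining markers Adipoq and Plin1 did not reach 3 arrays above background, and the part of fat tissue in the Ces values was not tested.

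The dim Ces1a, Ces1b and Ces1c, each above background on 3 to 5 arrays, had differences of 0.20, 0.20 and -0.25. Ces1a was at 5.20, 5.11 and 5.27 in Dnmt3a-deleted mice, against 5.33, 5.06 and 4.59 in control mice, Ces1b at 5.55, 5.36 and 5.59 in Dnmt3a-deleted mice, against 5.07, 5.60 and 5.24 in control mice, and Ces1c at 5.31, 5.21 and 4.91 in Dnmt3a-deleted mice, against 5.30, 5.41 and 5.47 in control mice. In each of these the groups overlapped. Ces1e and Ces2g stood at 0.22 ± 0.37 and 0.05 ± 0.30.

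Among the epoxide hydrolases, Ephx4 was at 6.68, 7.15 and 5.98 in Dnmt3a-deleted mice, against 6.97, 7.47 and 6.64 in control mice (-0.42 ± 0.33, and -0.11 ± 0.26 without Dnmt3a-deleted replicate 3). Ephx2, the soluble enzyme that opens epoxides of fatty acids, was at 6.48, 6.55 and 7.26 in Dnmt3a-deleted mice, against 6.71, 7.16 and 6.65 in control mice (-0.07 ± 0.25). Ephx1, the microsomal enzyme for foreign epoxides, was at 7.31, 7.30 and 7.78 in Dnmt3a-deleted mice, against 7.22, 7.85 and 7.26 in control mice (0.02 ± 0.23). In Ephx2 and Ephx1 Dnmt3a-deleted replicate 3 and control replicate 2 were the 2 highest mice, and the other 4 lay close together.

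Among the flavin-containing monooxygenases, Fmo5, found in gut and liver, was at 6.20, 6.83 and 6.27 in Dnmt3a-deleted mucosa, against 7.59, 6.62 and 6.68 in control mucosa (-0.53 ± 0.30, adjusted p 0.701). Control replicate 1 lay well above all other mice, and the difference was -0.21 without it. Fmo4 was at 6.15, 5.55 and 5.59 in Dnmt3a-deleted mice, against 5.80, 6.05 and 5.91 in control mice (-0.15 ± 0.20). Fmo1 was at 7.05, 5.91 and 7.32 in Dnmt3a-deleted mice, against 6.56, 6.86 and 6.39 in control mice (0.16 ± 0.36), with Dnmt3a-deleted mice at both ends of the range.

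**Figure D3:**
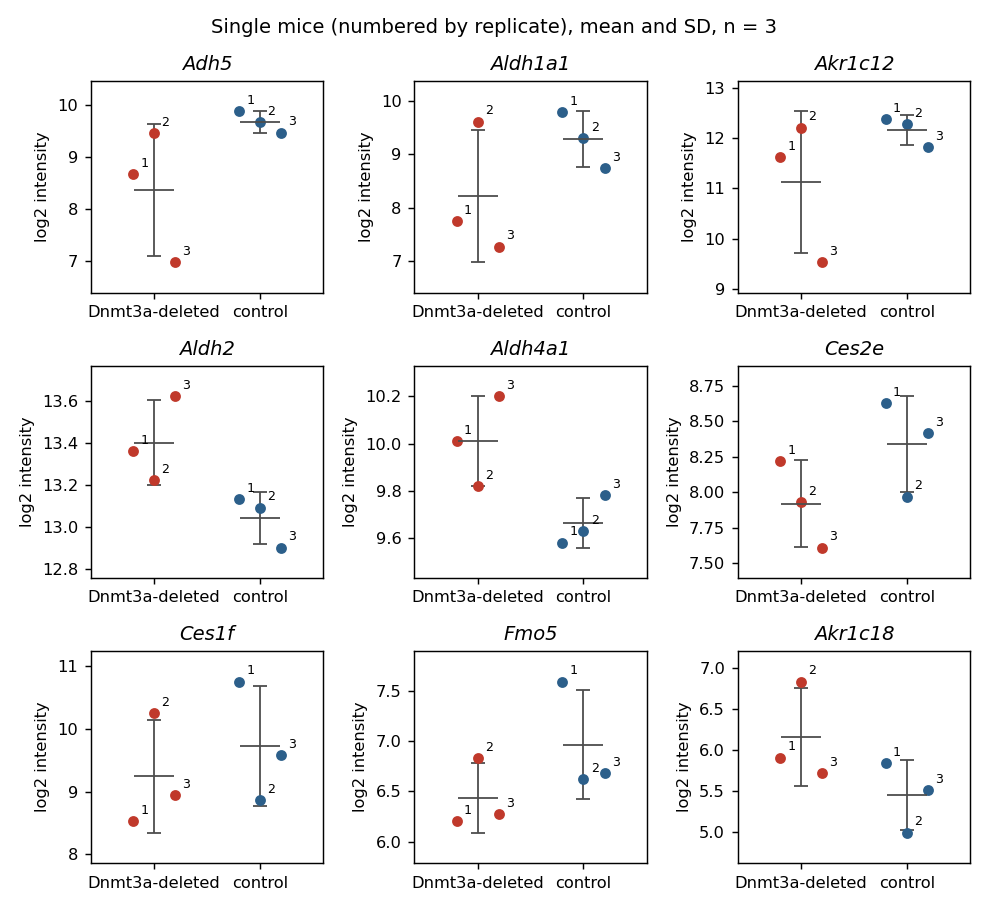
Log2 intensity of 9 members in single mice, numbered by replicate, with the mean and SD of each group (n = 3), Dnmt3a-deleted at left and control at right. Adh5 and Akr1c12 show 1 low Dnmt3a-deleted mouse, Aldh1a1 shows 2, Aldh2 and Aldh4a1 show a small gap between the groups, and in Ces2e, Ces1f and Fmo5 control replicate 1 is the highest mouse.

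The second question was how the members varied between mice, whatever their genotype. The range over the 6 arrays had a median of 1.07 log2 units over the members, from 0.21 for Akr1c14 to 2.90 for Adh5, beside a median of 0.70 over all genes. Dnmt3a-deleted replicate 3 was the highest or lowest array for 23 of the 43 members (53.5%) and for 67.5% of all genes. Control replicate 1 was the highest array for 13 members (30.2%), against 10.7% of all genes, and control replicate 2 for 11 (25.6%), against 12.9%. The members that peaked in control replicate 1 were Adh5, Aldh1a1, Aldh3a2, Aldh3b1, Aldh1b1, Akr1c12, Akr1c19, Ces2e, Ces1g, Ces1a, Ces1f, Ces1d and Fmo5.

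Of 13 small intestine enterocyte markers 9 were measured, Fabp2 and Lct not among them, and 5 of the 9 were highest in control replicate 1. The lipoprotein genes Apoa1 and Apoa4 were at 9.62 and 7.24 there and at most at 5.60 and 5.89 elsewhere, the brush border enzymes Sis and Anpep at 7.50 and 7.08 there and at most at 6.33 and 6.02 elsewhere, and Mttp at 5.82 there and at most at 5.63 elsewhere. The other 4 peaked in other mice: Fabp6 and Slc5a1 in Dnmt3a-deleted replicate 3 (10.58 and 9.57, with 8.95 and 8.99 in control replicate 1), Alpi in Dnmt3a-deleted replicate 2 (6.37, with 6.20 in control replicate 1) and Apob in control replicate 2 (8.96, with 8.41 in control replicate 1). The summed linear intensity of the 9 was 1434 to 2629 in Dnmt3a-deleted and 1887 to 2726 in control mice.

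Of 10 genes that mark position along the colon 8 were measured, 5 lower and 3 higher, with a median difference of -0.23. Osr2 was at 9.95, 12.28 and 8.32 in Dnmt3a-deleted replicates 1 to 3, against 12.51, 11.92 and 11.68 in control mice, low in the same replicates 1 and 3 as Aldh1a1, and Hoxb6 and Cyp2c55 were low in these replicates too (-1.76 ± 0.56 and -1.86 ± 0.91). Hoxd10 was instead higher in replicates 1 and 3 than in replicate 2, at 7.13, 5.48 and 7.80 in Dnmt3a-deleted replicates 1 to 3, against 5.13, 6.66 and 7.37 in control mice, and Hoxb13, Hoxa13, Hoxd12 and Hoxd13 had differences of 0.22, 0.12, -0.08 and -0.38. The summed linear intensity of the 8 was 1238 to 12749 in Dnmt3a-deleted and 8126 to 16701 in control mice. This sum mostly reflects Cyp2c55 and Osr2, with mean log2 intensities of 11.85 and 11.11, where the rest had at most 6.86. The list was not split by the end of the colon that each gene marks, so its median and sum give no direction. Cyp2c55 is also on the PXR and CAR list below.

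Markers of T and NK cells, of macrophages and granulocytes and of tuft cells differed more between the groups, with 0 at an adjusted p under 0.05 by limma. At an unadjusted p under 0.05, 2.15% of all genes were lower and 3.07% higher. All 5 measured B and plasma cell markers, of 8 looked for, were lower, with a median of -0.23 and 0 at that threshold. Of 12 T and NK cell markers 7 were measured, Cd4 and Cd8a not among them, with a median of -1.24. At an unadjusted p under 0.05, 6 of the 7 were lower. The remaining one, Cd8b1, was higher without overlap (0.43 ± 0.19). It was at 11.25, 11.62 and 11.37 in Dnmt3a-deleted mice, against 11.18, 10.70 and 11.06 in control mice. Cd8b1 had the highest mean of the 7 and weighs heavily in their summed linear intensity. That sum was 3308 to 4928 in Dnmt3a-deleted and 3990 to 7344 in control mice. Of 12 macrophage and granulocyte markers 8 were measured, Cd68 and Adgre1 not among them, with a median of -0.76 and 3 lower at that threshold. Aif1 and Csf1r went the other way (0.42 ± 0.24 and 0.09 ± 0.20). The sum of the 8 was 1278 to 2342 in Dnmt3a-deleted and 1911 to 7143 in control mice. The 7143 was that of control replicate 2, where S100a8 and S100a9 were at 12.04 and 10.35. Of 10 tuft cell markers 6 were measured, Pou2f3 not among them, with a median of 0.69, 5 higher at that threshold and a sum of 527 to 636 in Dnmt3a-deleted and 309 to 645 in control mice. Alox5ap went the other way (-0.21 ± 0.53) and, at 8.42, was the brightest of these markers in control replicate 2. The part of tissue composition in the enzyme differences was not tested.

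**Figure D4:**
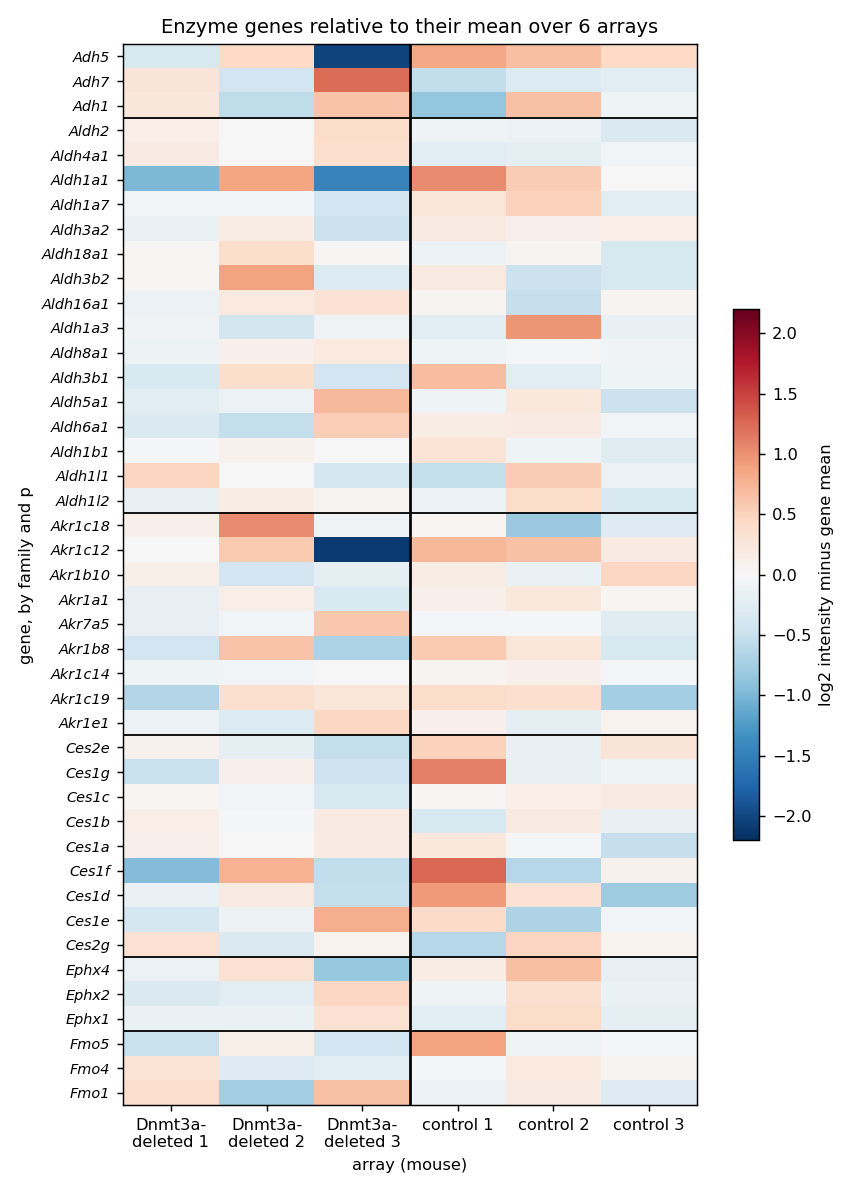
Log2 intensity of the 43 measured members on each array minus the gene's mean over the 6 arrays, Dnmt3a-deleted mice at left and control mice at right, families separated by lines. The column of Dnmt3a-deleted replicate 3 holds the deepest blue cells (Adh5, Akr1c12, Aldh1a1) as well as red ones (Adh7, Aldh5a1, Ces1e), and that of control replicate 1 holds red cells in Aldh1a1, Ces1g, Ces1f, Ces1d and Fmo5.

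With sex as a term, 6 members were lower (Adh5, Aldh1a1, Akr1c12, Ces2e, Ces1g and Fmo5) and 2 higher (Adh7 and Aldh4a1) at an unadjusted p under 0.05, or 14.0% and 4.65% of the members, against 6.47% and 8.16% of all genes. All 8 had an adjusted p of at least 0.338 by limma. In all 6 lower ones control replicate 1 was the highest of the 6 mice, and in both higher ones the lowest. Ces1g had passed the filter through the control mice (above background on 3 control arrays and 1 Dnmt3a-deleted array), so its place among the lower members is not independent of the filter. Leaving out Dnmt3a-deleted replicate 3 as well removed the only female Dnmt3a-deleted mouse. The difference then rested on Dnmt3a-deleted replicates 1 and 2 against control replicate 1, the only male control mouse. It is therefore given as a size only, with a median of -0.13 over the members and 0.02 over all genes.

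By family, the median differences were 0.21 for Adh (3 genes), 0.05 for Aldh (16), -0.09 for Akr (9), -0.25 for Ces (9), -0.07 for Ephx (3) and -0.15 for Fmo (3). With no filter the Ces median was 0.05 (17 genes). In every family the array medians of the 2 genotypes overlapped. For Ces, the arrays of Dnmt3a-deleted mice had median deviations from the gene means of 0.04, -0.05 and -0.36, against 0.42, -0.03 and -0.07 in control mice, the lowest from Dnmt3a-deleted replicate 3 and the highest from control replicate 1.

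**Figure D5:**
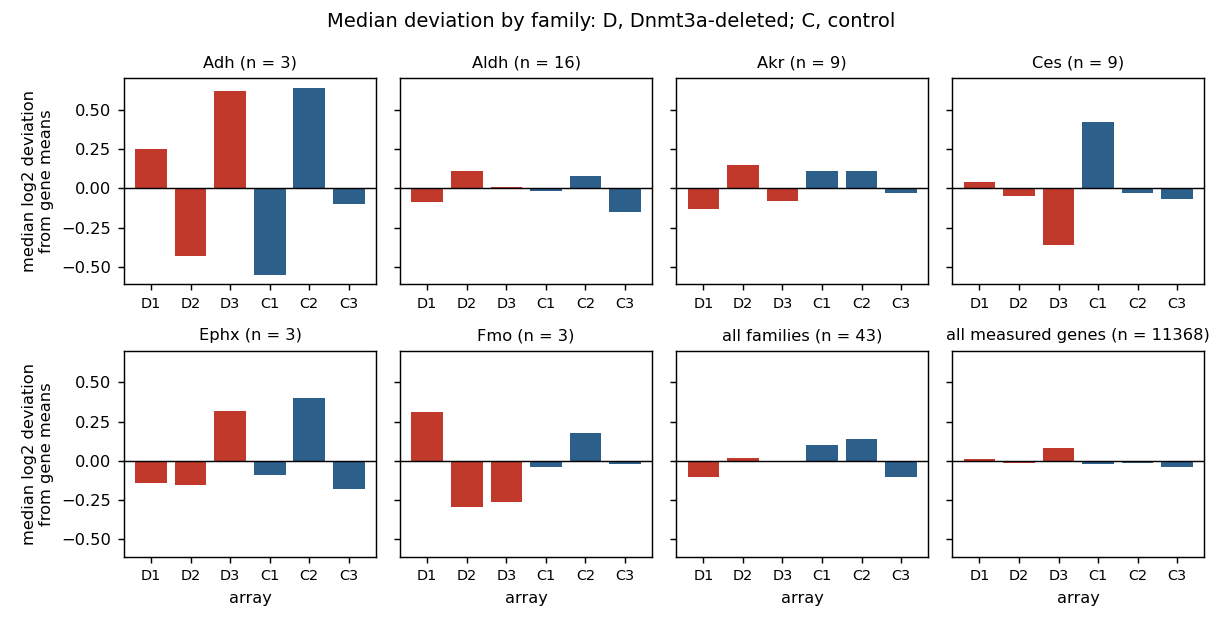
Median deviation of each family's measured genes from their means over the 6 arrays, in log2 units, for Dnmt3a-deleted (D1 to D3) and control (C1 to C3) mice, with all members and all measured genes at the end. The Ces bars are lowest in D3 (-0.36) and highest in C1 (0.42), the Adh bars, from 3 genes, swing within both groups, and all measured genes lie between -0.04 and 0.08.

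Of the 68 genes, 25 were not measured. Aldh7a1 lay above background on 2 arrays, Adh4, Adh6-ps1, Adh6a, Ces2d-ps, Ces5a, Ephx3 and Fmo2 on 1, and the other 17 on none: Aldh1a2, Aldh3a1, Aldh9a1, Akr1c6, Akr1c13, Akr1c20, Akr1c21, Akr1cl, Akr1d1, Ces2a, Ces2b, Ces2f, Ces3a, Ces3b, Ces4a, Fmo6 and Fmo9. Not rising above background on these probes does not show that a gene was silent, as 3 of the 4 probes of Adh5 show.

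The 7 lists of related genes, of which the enzymes above are no members, gave 0 genes at an adjusted p under 0.05 by limma. Of the retinoid metabolism genes 23 were measured, 11 lower and 12 higher (median 0), with 0 at an unadjusted p under 0.05; the intestinal factor Isx, which represses vitamin A uptake genes, stood at -0.95 ± 0.54 (-0.50 without Dnmt3a-deleted replicate 3), low in the same Dnmt3a-deleted replicates 1 and 3 (8.35 and 7.69) as Aldh1a1. Of other oxidoreductases of alcohols, aldehydes and ketones 15 of 21 were lower (median -0.10), among them the prostaglandin-oxidising Hpgd at -0.48 ± 0.27. Without Dnmt3a-deleted replicate 3 it was 11 of 21, with a median of -0.01, and Hpgd stood at -0.22. Of other hydrolases of esters, amides and epoxides 11 of 18 were lower (median -0.08). In that list Esd, which splits the product of Adh5 to formate, was at 9.81, 9.84 and 9.59 in Dnmt3a-deleted mice, against 10.03, 10.28 and 10.29 in control mice, without overlap (-0.45 ± 0.16, unadjusted p 0.0247, adjusted p 0.701). The colipase gene Clps went the other way without overlap (1.48 ± 0.48, adjusted p 0.701, and 0.96 without Dnmt3a-deleted replicate 3).

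Targets of the transcription factor NRF2 were 11 lower and 14 higher of 25 (median 0.04). Those of smallest p were the cystine transporter Slc7a11, higher without overlap (0.42 ± 0.18), the glutathione transferase Gsta3 (0.41 ± 0.24, and 0.16 without Dnmt3a-deleted replicate 3) and the quinone reductase Nqo1 (-0.89 ± 0.56, and -0.28 without that replicate). Of the list of the drug receptors PXR and CAR with their targets 9 of 12 were lower (median -0.22). It holds the receptors themselves, Nr1i2 (PXR) at -0.28 ± 0.16 and Nr1i3 (CAR) at 0.49 ± 0.30. The cytochrome P450 genes Cyp2c65 and Cyp2c55 stood at -2.05 ± 0.90 and -1.86 ± 0.91, and at -1.02 and -0.77 without Dnmt3a-deleted replicate 3. All 5 measured genes of the aryl hydrocarbon receptor list, its partner Arnt (-0.14 ± 0.20) included, were lower (median -0.89), led by the glucuronosyltransferase Ugt1a7c at -1.59 ± 0.61. Without Dnmt3a-deleted replicate 3, 4 of the 5 were lower, the median was -0.40 and Ugt1a7c stood at -0.77. The list holds Nfe2l2, the gene for NRF2, which was lower without overlap (-0.99 ± 0.44, adjusted p 0.701 by limma, and -0.43 without that replicate). It shares Nqo1 with the NRF2 list and Ugt1a6a with the PXR and CAR list, so the lists are not independent. Cyp1a1 was not among the measured genes. PPAR targets of lipid oxidation were 12 lower of 15 (median -0.39), 3 of them at an unadjusted p under 0.05 (Plin2, Cidec and Hadhb). In the background 41.7% of genes were lower.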

How the data were processed

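Colon RNA was extracted by kit, cleared of DNA and amplified to biotinylated cRNA, per the labels' protocols. The authors deposited a table of unprocessed signal intensities per probe with the background left in, beside deposited detection p-values that are 2-sided about each array's background, and a table of processed intensities matched across arrays in a way not given in the sources used here. Each animal was counted as 1 replicate.

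The unprocessed intensities were corrected with normexp (saddle-point method, offset 16), quantile normalized and taken to log2 with limma 3.58.1 in R 4.3.3. A probe counted as detected where p was under 0.05 and its signal exceeded the median of probes with p over 0.97, and was kept when detected on at least 3 arrays (21183 probes). A gene stood for its kept probe of highest mean. Genes were named through the platform annotation, with symbols updated from a RefSeq table of GRCm38.p6. Limma's lmFit and eBayes compared the groups, 2-sided, with no covariate, and the fit was tested on simulated data. The number of arrays limits the precision.

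Values in every array are given for up to 5 genes of smallest p and 3 of highest mean in each family, other members by their difference, and up to 3 genes of smallest p from each list of related genes. The cell type and position markers, Cyp2c55, Nr1i2, Nr1i3, Arnt, Aldh1a3, Aldh6a1 and the second Akr1b10 probe were described after their values were seen. The members and lists were chosen with earlier results of these data known. Alternatives changed the background correction, value source, normalization, offset, filter, probe rule, moderation, array weights, replicate block, sex term and membership, and left out each array. Slides are not given, so no block was fitted for them. Same-numbered mice of both groups are different animals, and their deviations correlated at -0.125, -0.11 and 0.0379, so the numbers do not pair them.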

Additional observations from a re-analysis of the deposited data

How the results depend on the processing

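In all 23 alternatives 0 members passed the adjusted threshold. Apart from sex as a term with replicate 3 left out, the smallest adjusted p of a member by limma ran from 0.107 (array weights) to 0.926 (without Dnmt3a-deleted replicate 3). The array weights were 6.04, 0.809 and 0.154 for Dnmt3a-deleted replicates 1 to 3, and 1.86, 0.956 and 0.749 for control replicates 1 to 3. In that setting the Dnmt3a-deleted mean thus rested mostly on replicate 1. The number lower at an unadjusted p under 0.05 was 1 in the values reported. It was 11 with array weights (25.6%, against 8.02% of all genes) and 6 with sex as a term (6.47% of all genes). No such count is given for sex as a term with replicate 3 left out, where 1 control mouse carries the comparison. The number lower was 2 with the replicate block (2.09%), the mean of the kept probes or all kept probes one by one (2.35% each). It was 0 with no background correction, the authors' processed table, offset 50 or median scaling (1.89 to 2.79%). It ran from 0 to 5 without single arrays, reaching 5 (11.6%, against 5.26% of all genes) without Dnmt3a-deleted replicate 2. The number higher, 0 in the values reported, was 4 with array weights (9.3%, against 11.5% of all genes), 2 with no background correction, the authors' table or offset 50 (2.9 to 3.27% of all genes) or with sex as a term (8.16%), and 0 to 2 without single arrays (1.44 to 6.51%). Members whose groups did not overlap, 1 lower and 2 higher, were 4 lower with sex as a term and replicate 3 left out (8.61% of all genes), 3 lower with loess (6.42%) or the mean of the kept probes (5.87%), 2 lower with median scaling, no filter, all kept probes or the authors' table (5.02 to 7.39%), and 1 higher with loess, median scaling or the mean of the kept probes (5.51 to 8.78%). Without single arrays they were 2 to 9 lower and 2 to 6 higher, against 8.61 to 12.2% and 13.4 to 19.8% of all genes, the 9 (20.9%, against 12.2%) without Dnmt3a-deleted replicate 2. A smaller group overlaps less readily by construction.

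The median of all members, -0.03, was -0.17 with median scaling and -0.13 to 0 without single arrays. Family medians moved beyond the spread between mice for Akr with median scaling (-0.27) and with sex as a term and replicate 3 left out (-0.29), for Ces with no filter (0.05), the 2-sided filter (0.04), sex as a term and replicate 3 left out (-0.56) and without single arrays (-0.28 to 0.02), for Adh with probes detected on all 6 arrays (-0.55), and for Aldh (-0.09) and Fmo (0.18) with array weights.

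Signs turned for Aldh1b1 with loess (0.00), median scaling (-0.08), array weights (-0.10), sex as a term (-0.05) and with replicate 3 also left out (-0.27), and ran from -0.09 to 0.20 without single arrays. They turned for Ephx1 with loess (-0.04), median scaling (-0.16) and array weights (-0.08), and ran from -0.14 to 0.22 without single arrays. Fmo1 turned with median scaling (-0.05) and with sex and without replicate 3 (-0.08), Akr7a5 with the mean of its probes (-0.03), array weights (-0.07) and sex without replicate 3 (-0.08), Fmo4 with array weights (0.18) and sex without replicate 3 (0.05), Ces1a with sex without replicate 3 (-0.17), and Ephx2 with sex as a term (0.08). Without single arrays the ranges were -0.17 to 0.58 for Adh1, -0.41 to 0.29 for Akr1c19, -0.02 to 0.37 for Akr7a5, -0.32 to 0.09 for Ephx2, -0.12 to 0.58 for Fmo1, -0.99 to 0.02 for Ces1f and -0.79 to 0.07 for Ces1d. Every difference and median given for sex as a term with replicate 3 left out sets Dnmt3a-deleted replicates 1 and 2 against control replicate 1 alone. Beyond that, the cause of these shifts was not tested. The replicate block changed no call. Dim probes such as those of Ces1a limit what can be read from small differences.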
